A study of Mus musculus with 15 samples.

Results

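The cytosolic ribosomal protein genes of the mouse encode the proteins of the large (60S) and small (40S) subunits of the ribosome. Their transcripts were followed in MH-S cells, a mouse alveolar macrophage line transformed with SV40, by bulk RNA-seq. Members were the protein-coding rows of the count table whose symbol begins with Rpl or Rps and a number, or is Rplp0, Rplp1, Rplp2 or Rpsa, with a mean of at least 1 CPM (counts per 1000000 counts of the library) over all libraries. The kinase genes that begin with Rps6k and the rows named as pseudogenes were left out. Of 391 rows with a matching symbol, 289 were named pseudogenes, 9 were Rps6k kinase genes, 7 were not protein-coding, and 86 were candidates. Rpl10l and Rpl39l fell below the level, at a mean of 0.0144 and 0.0958 CPM, which left 84 members of 78317 gene identifiers in the table. Rpl3l, at 3.63 CPM, was the member nearest to the threshold. The members were 43 genes of the 60S subunit, 31 of the 40S subunit, 3 of the acidic stalk, 6 paralogs of another member (Rpl3l, Rpl7l1, Rpl22l1, Rpl36al, Rps27l and Rps27rt), and Rps19bp1. The last is a binding partner of a ribosomal protein, not a ribosomal protein, and was taken in by its symbol. Fau and Rack1 encode ribosomal proteins under other symbols and are described with the other gene lists.

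The study compared 5 groups of 3 wells each after 24 h. M0 wells received medium only, M1 wells received lipopolysaccharide (LPS, 1 µg/mL) with interferon-γ (20 ng/mL), and M2 wells received interleukin-4 (IL-4, 20 ng/mL). CaP and SiO2 wells received rod-shaped microparticles of calcium phosphate or silica nanoparticles at 0.1 mg/mL, held together by alginate and coated with protamine and carboxymethyl chitosan, with a separate particle batch in each well. All groups were the same cell line, and the paper states that its separate wells shared 1 cell passage. The replicates, and p-values built on them, therefore measure the spread between wells, which may be technical. In CaP and SiO2 this spread includes that between particle batches. The spread between passages is not covered.

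Each ribosome carries 1 copy of nearly every ribosomal protein, and cells make these proteins in near-equal amounts. Most of their mRNAs start with a C followed by a run of pyrimidines, the 5′ terminal oligopyrimidine (TOP) tract, through which the kinase complex mTORC1 and the RNA-binding protein LARP1 set their translation. Control by the TOP tract acts largely on translation and mRNA stability, so mRNA levels do not report protein output. In macrophages, activation is known to change translation as well as transcription, and several ribosomal proteins have been described in roles outside the ribosome. These genes are also known for their many processed pseudogenes, intronless copies spread over the genome.

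The sequences that matter for reading these counts are those of near-identical copies and of the start sites. Rps27 encodes a zinc-finger protein of the 40S subunit. Its coding exons lie on chr3:90212725-90213615, minus strand, in GRCm38. Rps27rt is an intronless copy on chr9:114982453-114982707, minus strand, and its 255 coding bases were identical to those of Rps27 in all positions. Rps27l, a paralog with introns on chr9:66946175-66949357, plus strand, differed from Rps27 at 61 of 255 coding bases. The first 90 coding bases follow, with capitals marking the 24 bases of Rps27l that differ from Rps27.
Rps27 and Rps27rt: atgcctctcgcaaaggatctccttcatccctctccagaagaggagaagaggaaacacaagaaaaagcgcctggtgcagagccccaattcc
Rps27l: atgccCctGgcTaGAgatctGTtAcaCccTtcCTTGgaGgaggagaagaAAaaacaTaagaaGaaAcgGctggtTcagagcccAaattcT

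A read from the coding part of Rps27 can therefore be assigned to either Rps27 or Rps27rt, and only the untranslated ends separate them. The other paralogs were further from their parents over aligned coding sequence, with 87.9% identity for Rpl36al and Rpl36a, 74.3% for Rpl3l and Rpl3, 69.6% for Rpl22l1 and Rpl22, and 57.7% for Rpl7l1 and Rpl7.

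The start windows show a feature that the rule did not use. RefSeq promoter windows of GRCm38.p6 were found for 64 of the 84 members. A C at the annotated first base followed by at least 4 pyrimidines on the transcribed strand was present in 14 of these 64 genes (21.9%), against 813 of 27025 genes in the whole table (3.01%). Allowing the tract to begin within 5 bases of the annotated start gave 30 members (46.9%) against 21.2% of all genes. None of 69 mitochondrial ribosomal protein genes had the tract at the exact start, and 17 (24.6%) had it within 5 bases. The windows below run from 30 bases before the annotated start to 15 bases from it, and capitals mark the tract where one begins within 5 bases of the start. Rps27, its copy Rps27rt, Rps6 and Rpl35 are shown as members with a tract at the exact start, and Rps25 and Rps16 because the comparisons turn on them.
Rps27 (chr3:90213634-90213678, minus strand): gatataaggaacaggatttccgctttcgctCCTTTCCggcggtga
Rps27rt (chr9:114982725-114982769, minus strand): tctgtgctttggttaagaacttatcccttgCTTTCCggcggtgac
Rps6 (chr4:86857353-86857397, minus strand): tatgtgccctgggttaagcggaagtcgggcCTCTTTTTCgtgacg
Rpl35 (chr2:39005117-39005161, minus strand): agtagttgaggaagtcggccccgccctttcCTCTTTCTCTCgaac
Rps25 (chr9:44407684-44407728, plus strand): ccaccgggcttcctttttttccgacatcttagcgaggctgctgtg
Rps16 (chr7:28350659-28350703, plus strand): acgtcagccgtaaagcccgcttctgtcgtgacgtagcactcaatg

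No tract lies within 5 bases of the annotated start of Rps25 or Rps16. Further upstream, both printed windows hold a C followed by at least 4 pyrimidines, outside the reach of the search. The result says only that no tract begins within 5 bases of the annotated first base. That base may not be the one these cells use.

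Total counts ranged from 8459643 in M0 replicate 3 to 68750050 in M2 replicate 3, with a median of 14879931. All 84 members passed the filter on low counts, which kept 16654 genes for testing. Some macrophage markers were present, among them Cd68 at 677 to 1322 CPM and Ptprc (CD45) at 65.3 to 165 CPM. Siglecf and Pparg, which mark alveolar macrophages in tissue, stayed below 1 CPM in every library, as did Mertk. Marco reached at most 2.82 CPM and Itgax at most 4.93 CPM. Of 12 markers of epithelial, fibroblast, endothelial and lymphoid cells, Epcam had no count in any library, Pecam1 reached 1.71 CPM, and the other markers stayed below 1 CPM.

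Levels between genes are given as the mean CPM over 15 libraries per kilobase of coding sequence, since the annotated untranslated ends of these genes vary widely between transcript models. On this scale 74 of 84 members lay between 500 and 5000. The highest level was that of Rpl41 at 15724, a value raised by its coding sequence of 78 bases in a transcript of 582 bases. Rps27, Rps29, Rpl35 and Rps25 followed at 4957, 4928, 4524 and 4509. The stalk genes, whose products recruit the GTPase factors of elongation, lay at 2752 for Rplp1, 1708 for Rplp2 and 1205 for Rplp0. Rpsa, which encodes the 40S protein also known as the laminin receptor, lay at 803. The lowest members were Rpl3l, a paralog best known from striated muscle, at 3.01, Rps10 at 36.6, Rpl13a at 98.4, Rpl24 at 135 and Rpl36al at 159. Rps10, Rpl13a and Rpl24 encode core proteins of the ribosome, and most of the counts of their families lay on pseudogene rows, as described further on.

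Paralogs lay below their parents on the same scale, except Rpl22l1. Rpl3 was at 822 against 3.01 for Rpl3l, Rpl36a at 945 against 159 for Rpl36al, and Rpl7 at 618 against 268 for Rpl7l1. Rpl22l1, at 317, was above Rpl22 at 236. Rps27l was at 3665, below Rps27 and above Rps27rt at 1602, and the last value depends on how the counting divided the shared reads.

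**Figure D1:**
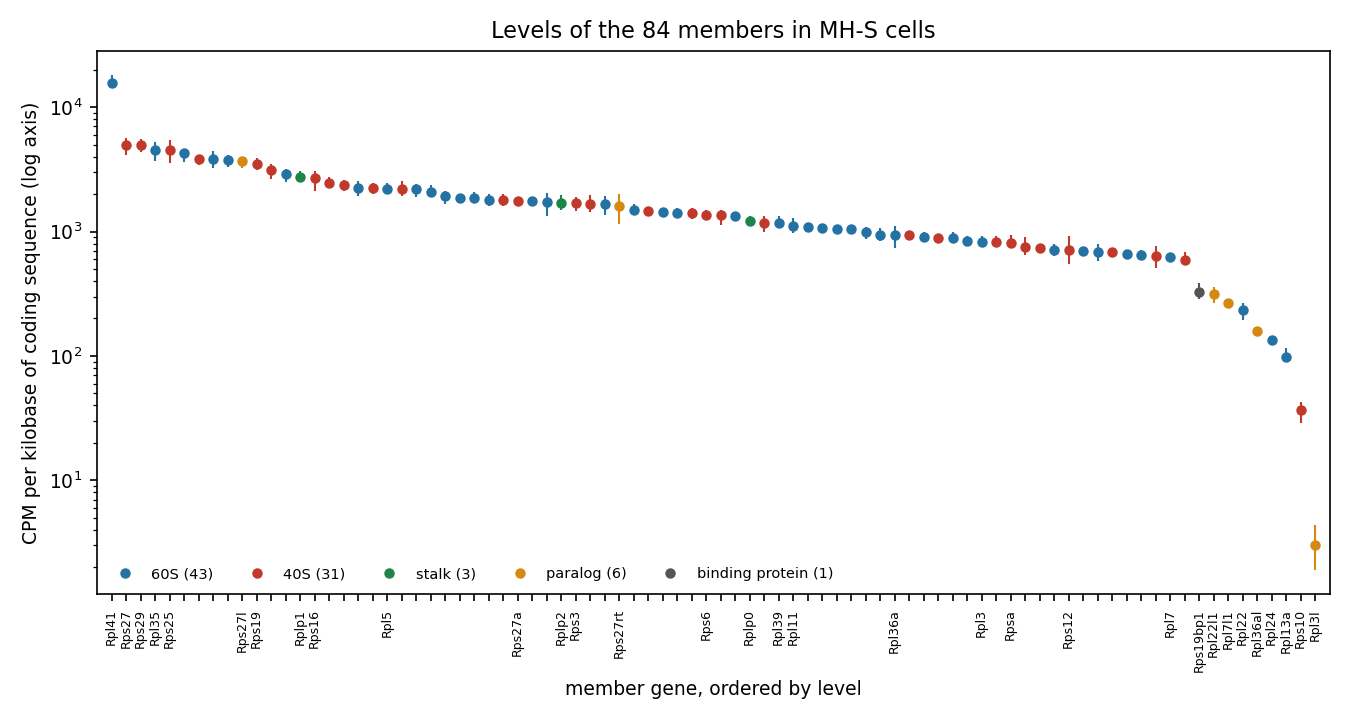
Mean CPM per kilobase of coding sequence (log axis) of the 84 members, with lines from the lowest to the highest of the 5 group means, colors by class, and names for some of the members. Most members lie between 500 and 5000, and the line of each gene is short beside the distance from Rpl41 to Rpl3l.

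Group means of single members were close together. The ratio of the highest to the lowest group mean had a median of 1.24 over the 84 members, and exceeded 1.5 for 6 of them, up to 2.30 for Rpl3l. The highest group mean was in M2 for 48 members, in CaP for 22, in M0 for 11 and in M1 for 3. M1 held the lowest group mean for 48 members, SiO2 for 26, CaP for 6 and M0 for 4. Members took 6.31% ± 0.791 of all counts in M0, 5.59% ± 0.338 in M1, 6.56% ± 0.356 in M2, 6.57% ± 1.09 in CaP and 5.98% ± 0.0800 in SiO2 (SD, n = 3 each). These shares describe the RNA of a well relative to its other RNA. Fewer cells of a type and less RNA per cell cannot be told apart in bulk samples.

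Single libraries moved the members as much as the groups did. CaP replicate 1 stood 0.403 log2 units above the members' own means, as a median over members, and was the highest of the 15 libraries for 46 members. The other CaP libraries stood at -0.150 and -0.0584, and only 2 members were above their own mean in CaP replicate 2. M2 replicate 2 and M0 replicate 2 stood at 0.223 and 0.220, and M1 replicate 1 was the lowest at -0.183 and held the lowest value of 30 members. The 692 other protein-coding genes with transcripts under 1000 bases moved in part with them, with medians of 0.257 in CaP replicate 1 and 0.357 in M2 replicate 2, but 0.0690 in M0 replicate 2 and -0.0141 in M1 replicate 1. Transcript length and GC content were not part of the main fit. An alternative fit took them into account by an offset (each library's trend of counts on both, removed before testing). The effect of this offset on the members is given with each comparison. The part of library quality in the members' values was not tested.

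**Figure D2:**
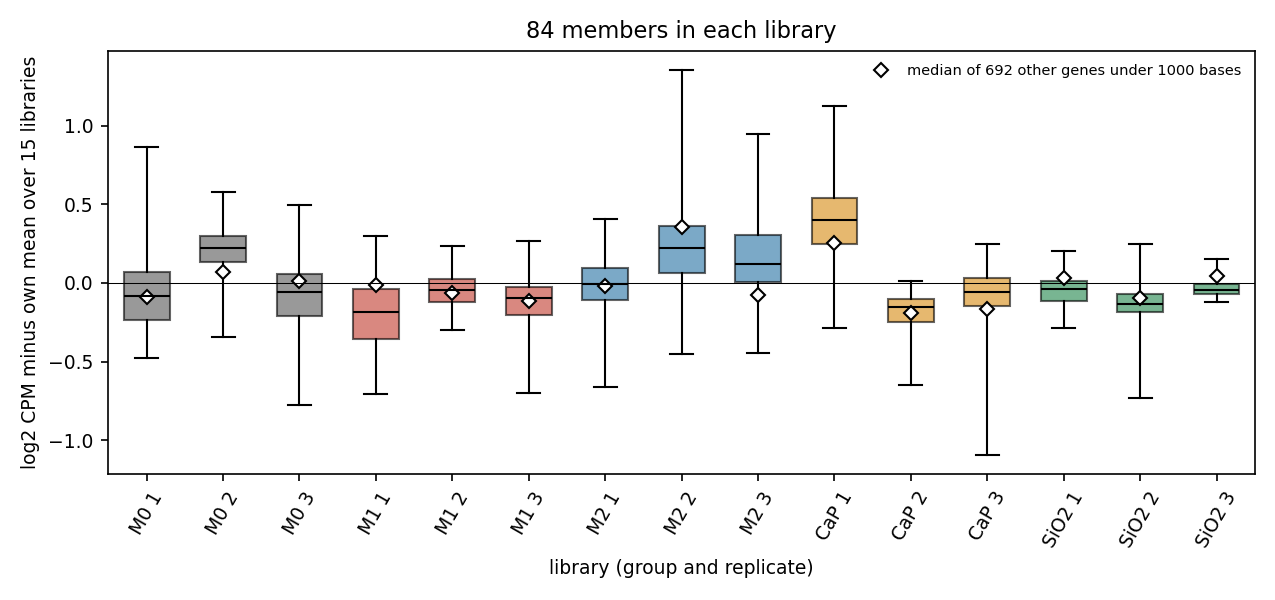
Log2 CPM of the 84 members minus each gene's mean over 15 libraries, by library, as boxes from the first to the third quartile with whiskers to the extremes. Diamonds show the median of 692 other short genes, and CaP replicate 1 stands above the remaining libraries.

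Classical activation was compared with the resting state first. Of the 84 members, 73 had lower fitted values in M1 than in M0 and 11 had higher ones, and the median log2 fold change was -0.18 against -0.0061 over all tested genes. The size of this median rested on M0 replicate 2, without which it was -0.042, with 51 members lower and 33 higher. It was -0.27 without M2 replicate 2, a library outside the comparison, and -0.22 with the length and GC offset, against -0.087 over all genes. Rps25, a 40S protein that binds the internal ribosome entry sites of some viral and cellular mRNAs, was the only member called at an adjusted p below 0.05 with an absolute log2 fold change above 0.5. Among all genes 14.1% were called in this comparison, 4.37% as lower in M1, and 1 of 84 members is a share below that background.

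Rps25 read 2468, 1896 and 1759 CPM in the M0 wells and 1333, 1441 and 1288 CPM in the M1 wells. All M1 wells lay below all M0 wells. Its log2 fold change was -0.59 (SE 0.17, adjusted p = 0.0309, edgeR quasi-likelihood test, all 15 libraries). The call was lost when M0 replicate 1, the highest well, was left out (log2 fold change -0.46, adjusted p = 0.112), and adjusted p was 0.0767, 0.0675 and 0.110 when M1 replicate 1, 2 or 3 was left out. The fold change stayed negative in 28 of 28 alternatives, between -0.78 and -0.46, and 22 of them kept the call. Alternatives that left out an M2, CaP or SiO2 well all kept it, with the compared wells unchanged.

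Groups did not overlap, with M1 lower, for 14 members (16.7%), beside 12.0% of all genes. Unadjusted p was below 0.05 for 3 members, Rps25, Rps16 and Rps19bp1, beside 27.7% of all genes. Besides Rps25, the members without overlap were Rps16, Rps3, Rpsa, Rps27a, Rps27l, Rps19bp1, Rpl35, Rpl34, Rpl26, Rpl23a, Rpl35a, Rpl10a and Rpl3l. Rpl13a was the only member whose M1 wells all lay above the M0 wells, beside 20.2% of all genes in that direction. Rpl13a is known from the GAIT complex, which silences translation of some inflammatory mRNAs after interferon-γ. It read 72.2, 70.1 and 71.6 CPM in M1 and 59.6, 53.1 and 64.3 CPM in M0. The M1 wells were close to each other and the log2 fold change of 0.27 (SE 0.16, 95% interval -0.076 to 0.62, adjusted p = 0.30, edgeR) did not pass the test.

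Precision was enough to bound most members. The 95% interval of the log2 fold change between M1 and M0 lay within -1 to 1 for 80 of 84 members, and within -0.5 to 0.5 for 28. By subunit, 36 of 43 members of the 60S class and 28 of 31 of the 40S class had lower values in M1, with medians of -0.11 and -0.19, so the direction was shared by both subunits.

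**Figure D3:**
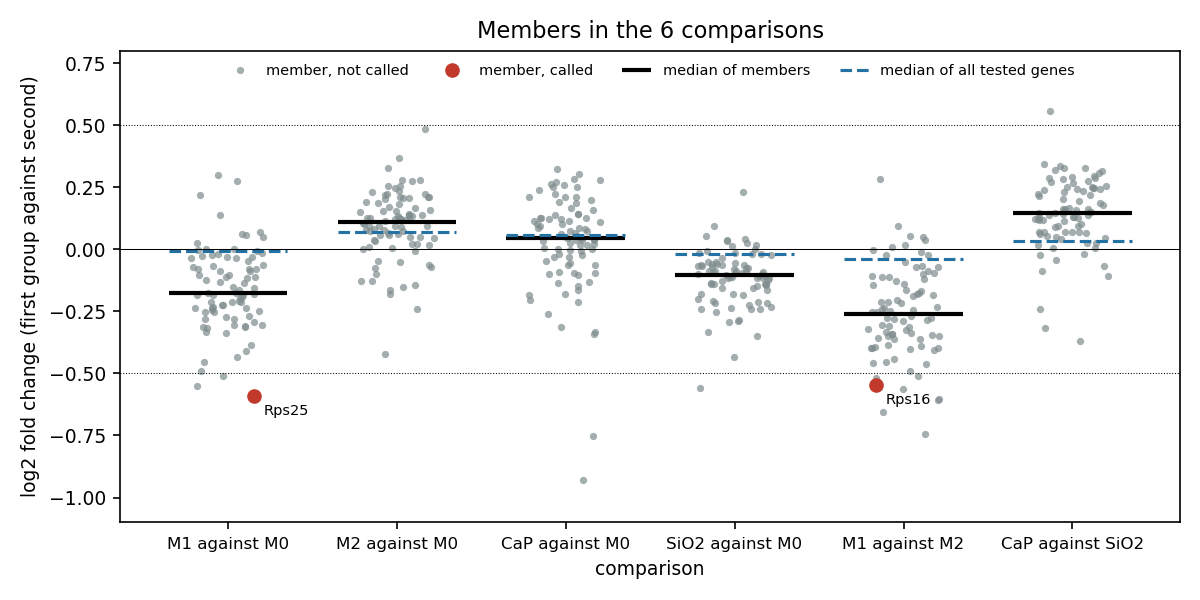
Log2 fold change of each of the 84 members (points) in the 6 comparisons, with the median of the members (solid bar) and of all 16654 tested genes (dashed bar), and dotted lines at -0.5 and 0.5. Rps25 in M1 against M0 and Rps16 in M1 against M2 are the called members, and the members' median is farthest below that of all genes in M1 against M2.

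The members were also lower in M1 when both activated states were compared. In M1 against M2, 77 of 84 members had lower values in M1, with a median log2 fold change of -0.26 against -0.037 over all genes, and the medians of the 60S and 40S classes were -0.24 and -0.29. With the length and GC offset the median was -0.20 against -0.098 over all genes, with 74 members lower. M1 wells lay below all M2 wells for 29 members (34.5%), beside 11.2% of all genes, and no member had M1 wells above all M2 wells, beside 18.2%. Rps16 was the only member called, beside 16.1% of all genes called and 5.46% called as lower in M1. Unadjusted p was below 0.05 for 8 members, beside 29.8% of all genes.

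Rps16, a 40S protein near the decoding site, read 833, 995 and 960 CPM in M1 and 1260, 1398 and 1417 CPM in M2. The wells did not overlap, and the M0 wells, at 1110, 1446 and 1145 CPM, also lay above those of M1. Its log2 fold change was -0.55 (SE 0.16, adjusted p = 0.0287, edgeR quasi-likelihood test). The call was lost when any 1 M1 well was left out (adjusted p = 0.111, 0.0549 and 0.0685 for replicates 1, 2 and 3) and without M2 replicate 3 (adjusted p = 0.0844). It was also lost with the length and GC offset (adjusted p = 0.110) and when only the 6 libraries compared were fitted (adjusted p = 0.0961). It was kept in 20 of 28 alternatives, and the fold change stayed negative in all of them, between -0.72 and -0.48. Alternatives that left out an M0, CaP or SiO2 well all kept the call, with the compared wells unchanged.

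Other members with unadjusted p below 0.05 included Rpl32, Rps18, Rpl36a, Rps15, Rps25 and Rpl11, all with lower values in M1. The value of Rpl32 was -0.61 (SE 0.24, adjusted p = 0.101, edgeR) and that of Rps18 was -0.60 (SE 0.26, adjusted p = 0.141, edgeR). Rpl11, which binds and inhibits the p53 ligase MDM2 when ribosome assembly fails, read 492, 538 and 538 CPM in M1 and 618, 767 and 683 CPM in M2. Its groups did not overlap, and its log2 fold change of -0.40 (95% interval -0.79 to -0.0068, adjusted p = 0.161, edgeR) did not pass the test. Rpl5, its partner on MDM2, did not share this pattern, with 1796, 2198 and 1923 CPM in M1 against 1943, 1431 and 2166 CPM in M2. In M1 against M2, other genes under 1000 bases had a median of -0.23, near that of the members, and genes of at least 4000 bases had a median of 0.12. The members' median in M1 against M2 stayed negative with the offset, as given above. In M1 against M0 the short genes' median was -0.078, beside -0.18 for the members, and in SiO2 against M0 -0.031 beside -0.10. It was 0.13 beside 0.11 in M2 against M0, 0.010 beside 0.045 in CaP against M0, and 0.00068 beside 0.15 in CaP against SiO2.

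Alternative activation was then compared with the resting state. In M2 against M0, 69 of 84 members had higher values in M2, with a median of 0.11 against 0.068 over all genes. The median was 0.028 without M0 replicate 1 (54 members higher), 0.062 without M0 replicate 3 (60 higher) and 0.050 without M2 replicate 2 (50 higher), and rose to 0.22 without M0 replicate 2 and 0.17 without M2 replicate 1. With the length and GC offset its sign turned, to -0.026 against 0.024 over all genes, with 35 members higher and 49 lower, and with total counts in place of TMM scaling it was 0.070. No member was called by edgeR, beside 4.13% of all genes. No member had an unadjusted p below 0.05, beside 17.2% of all genes, and DESeq2 called 0 as well. M2 wells lay above all M0 wells for Rpl8 and Rpl7l1 and below them for Rps27a, beside 7.03% and 8.20% of all genes. Rpl7l1 is a paralog of Rpl7 that takes part in ribosome assembly. It read 211, 208 and 208 CPM in M2 and 157, 207 and 178 CPM in M0, so the gap to the highest M0 well was small (log2 fold change 0.21, 95% interval -0.090 to 0.51). Rps27a, which encodes ubiquitin fused to a 40S protein, read 785, 777 and 845 CPM in M2 and 947, 890 and 856 CPM in M0 (log2 fold change -0.16, 95% interval -0.50 to 0.18).

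M2 replicate 2 stood apart for some members within its group. Rpsa read 1228 CPM there and 680 and 580 CPM in the other M2 wells. Rpl35 read 2742 CPM against 1372 and 1721 CPM, and Rps3, a 40S protein also described in DNA repair and NF-κB signaling, read 1962 CPM against 1122 and 1063 CPM. Rpl5 went the other way, at 1431 CPM against 1943 and 2166 CPM, and Rps27rt was also lowest there, at 285 CPM against 443 and 730 CPM. Members thus did not move as a block in this library, which was also the highest of the 15 for 27 members and had one of the smaller totals, at 8594947 counts.

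Exposure to CaP microrods gave no called member, and the direction of the members as a group depended on the processing and on single libraries. In CaP against M0, 53 members had higher and 31 had lower values, and the median was 0.045 against 0.059 over all genes. With the length and GC offset the median was -0.31 against -0.028 over all genes, with 76 of 84 members lower in CaP. No member was called by edgeR, beside 0.654% of all genes, nor by DESeq2, and 2 had an unadjusted p below 0.05, beside 15.8% of all genes. Groups did not overlap for Rps25, Rpl4 and Rpl3l, all lower in CaP, beside 10.1% of all genes, and no member had CaP wells above all M0 wells, beside 7.33%. The 95% intervals of 81 of 84 members lay within -1 to 1. The median was also negative without CaP replicate 1 (-0.14, with 71 of 84 members lower) and without M0 replicate 1 (-0.032, with 52 lower). It was 0.17 without M0 replicate 2, 0.15 without CaP replicate 2, 0.095 without CaP replicate 3 and 0.011 without M0 replicate 3.

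Rps12, a 40S protein near the beak of the subunit, had the lowest unadjusted p of the CaP comparison and was chosen for description after its values were seen. It read 497, 216 and 385 CPM in M0 and 224, 218 and 211 CPM in CaP. The CaP wells were nearly equal, and M0 replicate 2 lay among them. The log2 fold change was -0.75 (SE 0.24, adjusted p = 0.167, edgeR), and without M0 replicate 2 it was -1.02 with an adjusted p of 0.0276, the only one of 29 alternatives that called it. Its levels elsewhere were 336, 251 and 254 CPM in M1, 244, 319 and 257 CPM in M2, and 267, 244 and 302 CPM in SiO2. Unlike most members, Rps12 was not raised in CaP replicate 1. These CPM values are those of the Rps12 row alone. Of the counts of the Rps12 family, 67.1% lay on pseudogene rows, which are described further on. That share ran from 41.3% in M0 replicate 3, the smallest library, to 74.7% in M2 replicate 3, the deepest. Rpl3l, the other member with an unadjusted p below 0.05, read 3.28, 2.17 and 1.59 CPM in CaP and 4.71, 4.16 and 4.75 CPM in M0 (log2 fold change -0.93, SE 0.36, adjusted p = 0.250, edgeR).

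**Figure D4:**
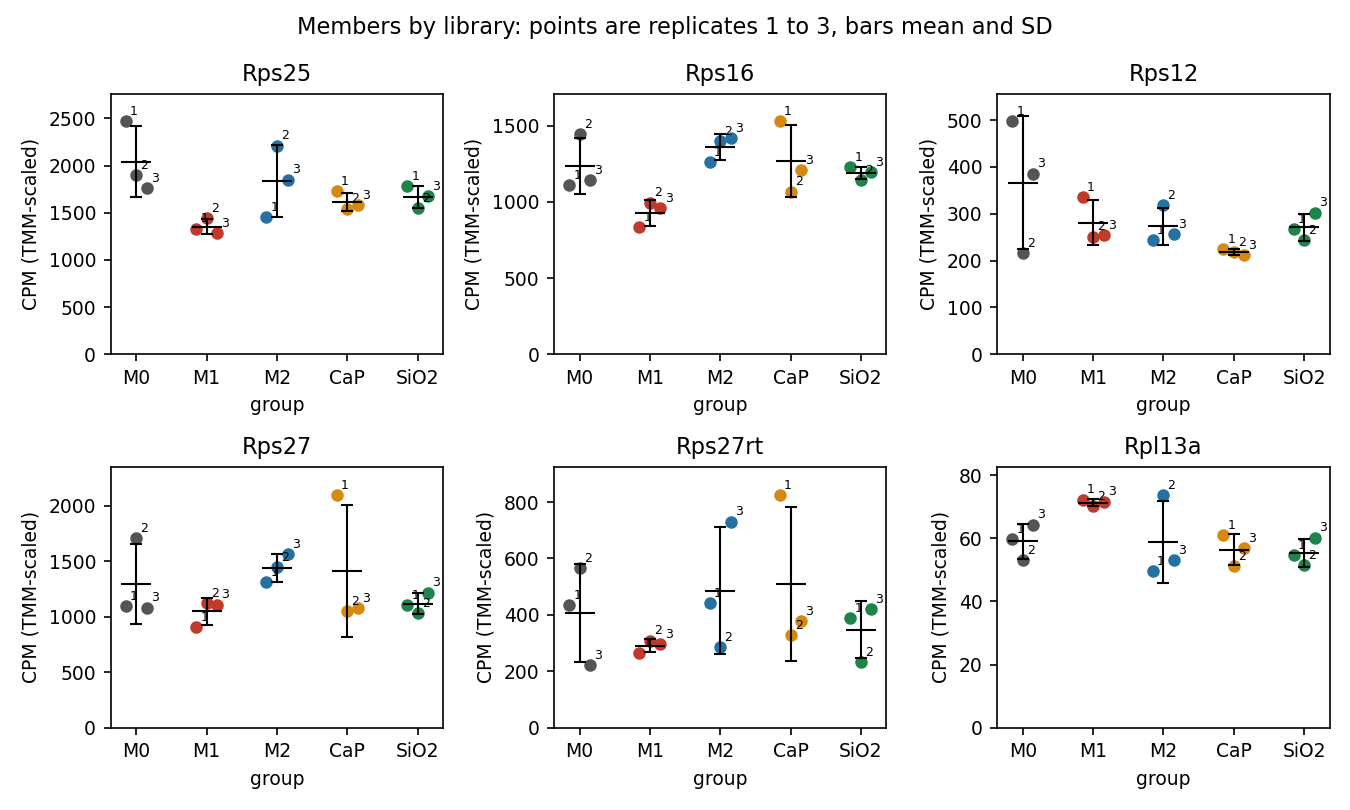
CPM of Rps25, Rps16, Rps12, Rps27, Rps27rt and Rpl13a in every library by group (points numbered by replicate, bars mean and SD, n = 3). The M1 wells lie low and close together for Rps25 and Rps16, and CaP replicate 1 is the highest well for Rps16, Rps27 and Rps27rt.

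After exposure to SiO2 microrods most members lay slightly below their M0 level. In SiO2 against M0, 74 of 84 members had lower values, with a median of -0.10 against -0.021 over all genes. With the length and GC offset the median was -0.24 against -0.047 over all genes, with 82 members lower. No member was called by edgeR, beside 0.264% of all genes, none had an unadjusted p below 0.05, beside 8.17%, and DESeq2 called 0. SiO2 wells lay below all M0 wells for 15 members (17.9%), beside 8.87% of all genes, and above them for no member, beside 9.10%. Those 15 were Rps3, Rps20, Rps27a, Rps27l, Rps19bp1, Rpl4, Rpl6, Rpl9, Rpl10a, Rpl14, Rpl23a, Rpl26, Rpl35, Rpl36al and Rpl3l. The median rested on M0 replicate 2, the M0 well with the highest members, and was 0.00288 without it, with 43 members higher and 41 lower, and -0.17 without M0 replicate 1. SiO2 wells were the most alike of any group in the share of counts taken by members, which lay between 5.89% and 6.05%.

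Between both microrods the members showed no called difference. In CaP against SiO2, 75 of 84 members had higher values in CaP, with a median of 0.15 against 0.034 over all genes, and edgeR called none, beside 0.0180% of all genes. No member had an unadjusted p below 0.05, beside 1.66% of all genes, and DESeq2 called 0. CaP wells lay above all SiO2 wells for Rps4x, Rps13, Rpl10 and Rpl14, beside 3.43% of all genes, and below them for Rps2 and Rps12, beside 4.67%. With the length and GC offset the direction turned, to a median of -0.092 against -0.0067 over all genes, with 60 members lower in CaP and 24 higher. Without CaP replicate 1 the median was -0.033 and 57 of 84 members were lower in CaP, and without CaP replicate 2 it was 0.25. The 95% intervals lay within -1 to 1 for 81 members and within -0.5 to 0.5 for 29, so a difference of the size seen in the median could not be told from 0 for single genes. Equal mass of both rods was given, and rods per cell were not equal because the materials differ in density.

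Members with known roles outside the ribosome did not pass the test in any comparison. Rps6, the 40S protein phosphorylated by the S6 kinases downstream of mTORC1, read 913, 1089 and 1070 CPM in M0 and 1058, 1028 and 941 CPM in M1, with overlapping groups (log2 fold change -0.021, 95% interval -0.33 to 0.28). Rps19, mutated in Diamond-Blackfan anemia and described as a chemoattractant for monocytes, read 1137, 1483 and 1465 CPM in M1 and 1661, 1575 and 1810 CPM in M2, without overlap (log2 fold change -0.30, 95% interval -0.74 to 0.13). Rps3 read 1083, 1065 and 1076 CPM in M1 and 1314, 1409 and 1286 CPM in M0, without overlap (log2 fold change -0.32, 95% interval -0.75 to 0.12). Rps19bp1, which binds Rps19 and is described as an activator of the deacetylase SIRT1, read 137, 124 and 109 CPM in M1 and 175, 156 and 169 CPM in M0. Its groups did not overlap and its log2 fold change was -0.43 (SE 0.19, adjusted p = 0.154, edgeR).

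The stalk genes and Rpsa did not pass the test in any comparison either. Rplp0, often used as a reference gene in quantitative PCR, read 921, 1359 and 1105 CPM in M0, 1002, 1116 and 1119 CPM in M1, 1200, 1485 and 1152 CPM in M2, 1386, 1055 and 1147 CPM in CaP, and 1061, 1064 and 1079 CPM in SiO2. The M1 wells lay below the M2 wells, and no other pair of groups was without overlap in the comparisons made. The ratio of the highest to the lowest group mean was 1.20 for Rplp0, 1.20 for Rplp1, 1.32 for Rplp2 and 1.28 for Rpsa. Rpl7 had the smallest such ratio of all members, 1.08, with single wells from 451 to 561 CPM.

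Rps27rt had the second highest ratio of highest to lowest group mean, after Rpl3l. This copy, chosen for description after its values were seen, read 436, 566 and 221 CPM in M0, 265, 309 and 298 CPM in M1, 443, 285 and 730 CPM in M2, 825, 328 and 379 CPM in CaP, and 388, 232 and 421 CPM in SiO2. Its ratio was 1.76, and its wells overlapped in all 6 comparisons. Rps27rt took 16.5% of the summed CPM of Rps27 and Rps27rt in M2 replicate 2 and 31.8% in M2 replicate 3, the smallest and the deepest library of that group. The sum of both read 1174, 1436 and 1407 CPM in M1 and 1758, 1732 and 2296 CPM in M2, which do not overlap. Rps27 alone read 909, 1127 and 1110 CPM in M1 and 1315, 1447 and 1566 CPM in M2 (log2 fold change -0.46, SE 0.25, adjusted p = 0.236, edgeR). The values of each copy are uncertain, because their coding sequences are the same. The sum also leaves out the pseudogene rows matched to Rps27, described further on, which held 33.3% of the counts of its family.

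Most members had processed pseudogenes of near-identical sequence that carried counts. Of the rows annotated as processed pseudogenes, 1027 matched a member's transcript at 90% identity or more over at least 50% of the row, and 79 of 84 members had at least 1 such row. These rows held 34.2% to 55.1% of the counts of the members' families. The share was lowest in M0 replicate 3, the smallest library, and highest in M2 replicate 3, the deepest. In between it was 35.2% in M2 replicate 2 and 50.6% in M0 replicate 1, with 8594947 and 39201265 counts. In M1, whose libraries had 10117846 to 14879931 counts, it lay between 40.7% and 41.6%.

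The division differed strongly between members. Pseudogene rows held over 50% of the family's counts for 33 members and under 10% for 16. Rps10 had the highest share, 92.3%, on 2 matched rows, and its family had a mean of 243 CPM against 18.2 CPM for the row of Rps10 itself. For Rpl24 the share was 75.6% and for Rpl13a 71.0%, so these low members lay in families of 244 and 169 CPM. Rpl23a, Rps2 and Rpl35a had shares of 86.1%, 78.9% and 78.1%. Rps9, Rps27rt, Rps19bp1 and Rpl3l had no matched row. Whether the reads came from the pseudogenes or from the parents was not tested. Adding the matched rows to their parents took the median of M1 against M2 to -0.46, with all 84 members lower in M1, and that of M1 against M0 to -0.28, with 80 members lower, and both comparisons set libraries of unequal depth against each other.

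**Figure D5:**
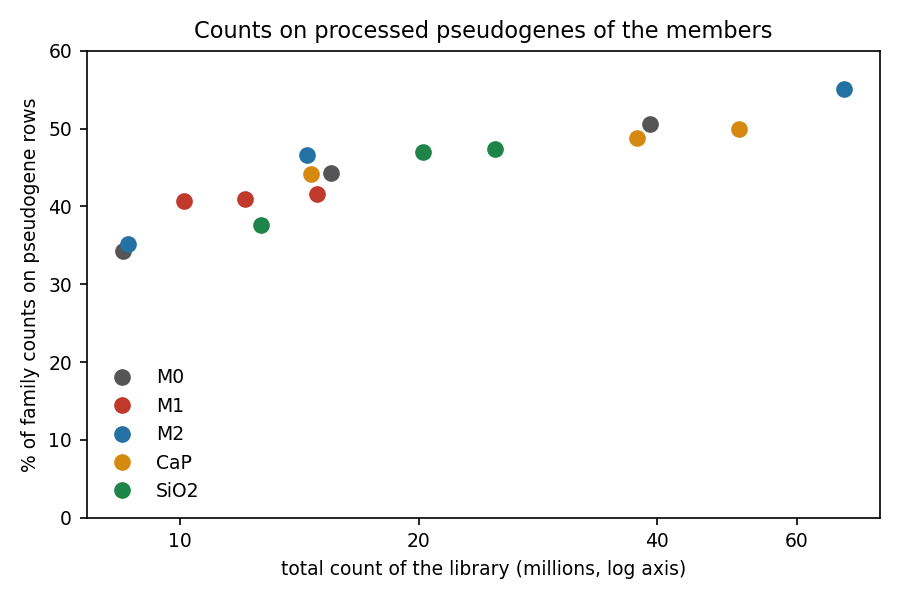
Percent of the counts of the members' families that lay on matched processed pseudogene rows (linear axis from 0) against the total count of the library (log axis), by group. The share runs from 34.2% in the smallest library to 55.1% in the deepest.

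Other genes of the translation machinery were read beside the members. Fau and Rack1, ribosomal proteins under other symbols, were called in none of the 6 comparisons, with 862 to 1481 CPM for Fau and 959 to 1476 CPM for Rack1. Of 20 translation factors and other mRNAs listed as TOP mRNAs, such as Eef1a1 and Tpt1, none was called in any comparison. Among all genes 14.1% were called in M1 against M0, 16.1% in M1 against M2 and 4.13% in M2 against M0. In the microrod comparisons the share was 0.654% or less, so the absence of calls among 20 genes says little there. The median of the 20 genes between M1 and M2 was -0.074 against -0.26 for the members. Start windows were found for 14 of these genes, with the tract at the exact start in 2 (14.3%) and within 5 bases in 5 (35.7%). Of 40 ribosome biogenesis genes, 4 were called in M1 against M0, beside 14.1% of all genes, and the list's median was -0.032. Taf1d, a subunit of the RNA polymerase I selectivity factor, rose from 80.6 ± 2.82 to 155 ± 3.15 CPM (SD, n = 3 each), Bysl from 33.8 ± 12.8 to 71.9 ± 17.7 CPM and Rcl1 from 35.7 ± 7.29 to 58.3 ± 9.02 CPM, while Nop58, a core protein of box C/D particles, fell from 204 ± 14.6 to 138 ± 16.7 CPM. In M1 against M2, Taf1d and Ltv1 were the called genes of that list, both higher in M1, beside 16.1% of all genes, and no gene of it was called in the other 4 comparisons.

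Of 20 regulators of translation and mTORC1 signaling, 3 were called in M1 against M0, beside 14.1% of all genes. The list had 10 genes higher and 10 lower, with a median of 0.013. Myc, a transcription factor that drives ribosome production, rose from 2.59 ± 0.249 to 22.8 ± 5.13 CPM in M1 against M0 (log2 fold change 3.15, SE 0.34, adjusted p = 3.03e-05, edgeR). Mtor, the kinase of mTORC1, rose in the same comparison by a log2 fold change of 0.88 (SE 0.16), and Sesn2, an inhibitor of mTORC1 signaling, by 1.22 (SE 0.33). Ddit4, another mTORC1 inhibitor, was the 1 called regulator in M2 against M0, beside 4.13% of all genes, at 9.86 ± 5.79 against 2.12 ± 0.426 CPM (log2 fold change 2.24, adjusted p = 0.0380, edgeR). Myc and Mtor were also higher in M1 than in M2, and no regulator was called in the microrod comparisons. The 78 mitochondrial ribosomal protein genes had medians of 0.023 in M1 against M0 and -0.057 in M1 against M2. Mrpl52 was called as higher in M1 in both, Mrps25 was called as higher in M2 than in M0 and M1, and no other gene of this list was called. The shares of all genes called were 14.1% in M1 against M0, 16.1% in M1 against M2 and 4.13% in M2 against M0.

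Members rose and fell together over the libraries. The correlation of a member's log2 CPM with the mean of the other members over 15 libraries had a median of 0.77 and was above 0.8 for 39 members, with the highest value for Rps27 (0.96) and Rpl11 (0.96). It was below 0.3 for 7 members, among them Rpl4 (0.15), Rpl7l1 (0.14), Rpl13a (-0.019) and Rps12 (-0.22). The genes outside the members whose log2 CPM followed the members' mean most closely were Fau (r = 0.96), Pfdn5 (0.93), Cops9 (0.92), Mrpl51 (0.92) and Cox6c (0.91). The points of these correlations are libraries that share groups and differ in depth, and they are given as a description.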

How the data were processed

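Libraries were made by the study with the Smart-seq2 protocol, whose reads carry neither strand nor molecular identifiers, and were sequenced as paired-end reads. Per the labels and the study's methods, the authors processed the reads with nf-core/rnaseq (STAR and Salmon) on GRCm39 with an Ensembl annotation, and the deposited values are whole-number counts per gene and library, not normalized. Salmon divides reads that match several genes, so near-identical copies share counts. All counts are subject to the number of reads, and intervals cover the spread between wells as fitted.

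Symbols, gene types and lengths were taken from GENCODE M21 (GRCm38), which named 51487 of 78317 identifiers. Pseudogene rows were matched with blastn. Counts were filtered by group (filterByExpr, minimum 10), scaled by TMM and tested with edgeR 4.0.16 (quasi-likelihood, all 15 libraries, group as the factor, Benjamini-Hochberg over 16654 genes) in R 4.3.3. Calls needed both an adjusted p under 0.05 and a log2 fold change beyond 0.5 in either direction. DESeq2 1.42.0 was an alternative. The edgeR and DESeq2 steps were tested on simulated data. CPM is counts per 1000000 of the scaled library. Groups came from the sample titles, and no pair of replicates agreed within sampling noise. Replicate numbers did not pair the samples.

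Named members were those called in any comparison, the 5 highest and 5 lowest per kilobase, the stalk genes and Rpsa, paralogs with their parents, members with roles outside the ribosome, and Rps19bp1. The members and gene lists were chosen with earlier results of these data known. Alternatives changed the scaling, filter, tool, model, depth, copies and libraries. Rps14 and Rpl17 were analysed, but their sequences were not used here.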

Additional observations from a re-analysis of the deposited data

Results flagged for a closer look

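The levels of Rps16 under both activating treatments differed in the direct contrast of M1 and M2. With M0 as the common reference its log2 fold change was -0.41 in M1 (adjusted p = 0.101, edgeR quasi-likelihood test) and 0.14 in M2. Neither was called, so a response to either treatment alone is not established. The direct contrast, which is the M1 against M2 comparison given above, gave -0.55 (SE 0.16, adjusted p = 0.0287, edgeR quasi-likelihood test). Values were lower in 3 of 3 M1 wells than in any M2 well. Among all genes 16.1% were called in this contrast, 5.46% as lower in M1, and Rps16 was the only member called. The call was lost in 8 of 28 alternatives, which were the length and GC offset (adjusted p = 0.110, edgeR), only the 6 libraries compared (0.0961), the replicate block (0.0545), the offset with the block (0.125), and leaving out M2 replicate 3 or any 1 M1 well (0.0549 to 0.111). Groups of 3 wells were too small to test single wells as outliers.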

How the results depend on the processing

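Over 28 alternatives, or 29 for the microrod comparisons, the median of the members stayed negative in M1 against M0 (-0.28 to -0.042) and in M1 against M2 (-0.46 to -0.19), the lowest of which came with sequence-matched pseudogene rows added. With a length and GC offset the median was -0.31 in CaP against M0 and -0.092 in CaP against SiO2, and with this offset and the replicate block -0.29, -0.061 and, in M2 against M0, -0.070. Leaving out 1 library gave medians of -0.14 to 0.17 in CaP against M0 and -0.033 to 0.25 in CaP against SiO2, the lowest of both without CaP replicate 1. The count of called members in M1 against M0 was 0 with the replicate block and with the offset and block, and 0 to 2 when 1 library was left out. It reached 2 without M0 replicate 2 or M2 replicate 2, and was 0 without M0 replicate 1 or any M1 replicate. In M1 against M2 the count was 5 with no filter on low counts, 0 with only the 6 libraries compared, 0 with the block, 0 with the offset and with both, and 0 to 3 when 1 library was left out. In CaP against M0 it was 1 without M0 replicate 2. Leaving out 1 library gave 0.028 to 0.22 in M2 against M0 and -0.17 to 0.0029 in SiO2 against M0. The causes were not tested. The replicate numbers did not pair the samples: 14 of 30 same-numbered pairs had deviations correlated above 0.1, and 4 of 15 libraries correlated best with their own number. Under the block the adjusted p was 0.0545 for Rps25 in M1 against M0 and 0.0545 for Rps16 in M1 against M2. Scaling by total counts or DESeq2 size factors moved the median of all genes by at most 0.042 and changed no count of called members. Single calls were lost in 6 alternatives for Rps25 and in 8 for Rps16, 7 other calls of named members were gained, and none reversed. The share of counts in members was lowest in M1 under each denominator tried, for example 9.49% against 10.8% to 12.6% in the other groups with the matched rows added. The sequence-matched rows and edgeR's legacy quasi-likelihood were chosen after seeing the data. Wells of 3 per group limit what single members can show, and the depth of low members such as Rpl3l limits them further.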
